A study of Bactrocera dorsalis with 6 samples.

Results

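The 3 adult libraries of the oriental fruit fly Bactrocera dorsalis were set against its 3 immature libraries, and each of 10799 assembled unigenes was asked whether the lowest value of one class exceeded the highest value of the other. A unigene is a group of assembled transcripts treated as 1 gene, and those that met the rule are called separating. Of the 10799 unigenes, 1421 separated, of which 659 were higher and 762 were lower in adults. The adult class held virgin adult males, a library labelled female for virgin adult females, and mated females. The immature class held eggs, larvae and pupae. All 6 libraries, which are the whole series, came from whole insects of the laboratory colony Punador reared on an artificial diet, and all but mated females pooled daily collections over the stage, while mated females were taken once mating had been seen. The libraries of a class are therefore different stages and sexes and not replicates, each stage was sequenced once, and no difference has a replicate check, so no p-value or SD is given.

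Flies undergo complete metamorphosis. The embryo in the egg builds a cuticle of chitin and protein, and the feeding larva repeatedly sheds and rebuilds it. The pupa breaks down most larval tissue and builds the adult body, and the adult feeds, flies, mates and reproduces. Ecdysteroids trigger each moult and juvenile hormone sets its outcome. Cytochrome P450 enzymes serve both the synthesis of these hormones and the clearance of toxic compounds from food and surroundings. In RNA from whole insects, fewer cells of a type and less RNA per cell cannot be told apart, and this applies to every value given here.

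Values are the deposited RSEM expected counts per 1000000 counts of the library, written CPM, with the deposited FPKM (fragments scaled by transcript length and library size, with TMM factors) as the second scale. Totals ranged between 7386960 and 9905262 expected counts, so that the count of 0 allowed for up to 0.303 CPM in the male library and up to 0.406 in the egg library, taking 3 counts as the limit. Cp19, a chorion protein of the eggshell, had 0.404, 0.232 and 1413 CPM in the male, female and mated libraries, against 0.406, 0.669 and 0.127 in the egg, larval and pupal libraries. Lsp2, a storage protein of late larvae, had 849, 1172 and 142 CPM in the male, female and mated libraries, against 6.5, 2048 and 21645 in the egg, larval and pupal libraries. Cp19 was high in mated females alone and Lsp2 was highest in pupae. Across unigenes the library labelled female nearly matched that of males, with a Spearman coefficient of 0.991, and its dsx isoform shares differed from those of males by 21.8 percentage points and from those of mated females by 85.4. That library is called female only as its label, and counts without it are given beside the main ones. For short, female library stands for it below.

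On CPM, 659 unigenes were higher in all 3 adult libraries than in any immature library, or 6.10% of those compared, and 762 were lower, or 7.06%. On FPKM, 484 were higher, which is 4.48%, and 778 were lower, which is 7.20%. No unigene changed direction between the scales, but none could. FPKM rescales the same counts by library and, relative to CPM, lowers eggs most and raises larvae most. Of the 659 higher on counts, 400 were also higher on FPKM, or 3.70% of all unigenes, and 147 of the others are listed at FPKM 0 in every library, as are all 1203 unigenes without egg counts. Of the 762 lower on counts, 635 were also lower on FPKM, or 5.88% of all. The median log2 difference between the means of the classes, over the 8863 unigenes with at least 100 counts, was −0.14 on column totals, −0.10 with TMM factors of edgeR and −0.05 with size factors of DESeq2. On FPKM it was −0.13, over the 8307 of them with an FPKM above 0 in some library.

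Most gaps were narrow. The gap of a unigene is the lowest value of its higher class over the highest value of the other class, and with 1 CPM added to both its median was 1.38 for unigenes higher in adults and 1.25 for those lower. It was under 1.1 in 109 of the 659 and in 203 of the 762. When each value was replaced by its exact 95% Poisson interval, which covers counting error only, 385 unigenes were apart as higher in adults, or 3.57%, and 285 as lower, or 2.64%. A gap of at least 2-fold with 10 or more counts in every library of the higher class was met by 209 unigenes higher in adults, or 1.94%, and 205 lower, or 1.90%. At the far end, 30 unigenes had at least 10 CPM in every adult library and less than 1 in every immature library, and 29 had the opposite pattern. The scatter of the extremes of both classes places every unigene against this rule.

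**Figure D1:**
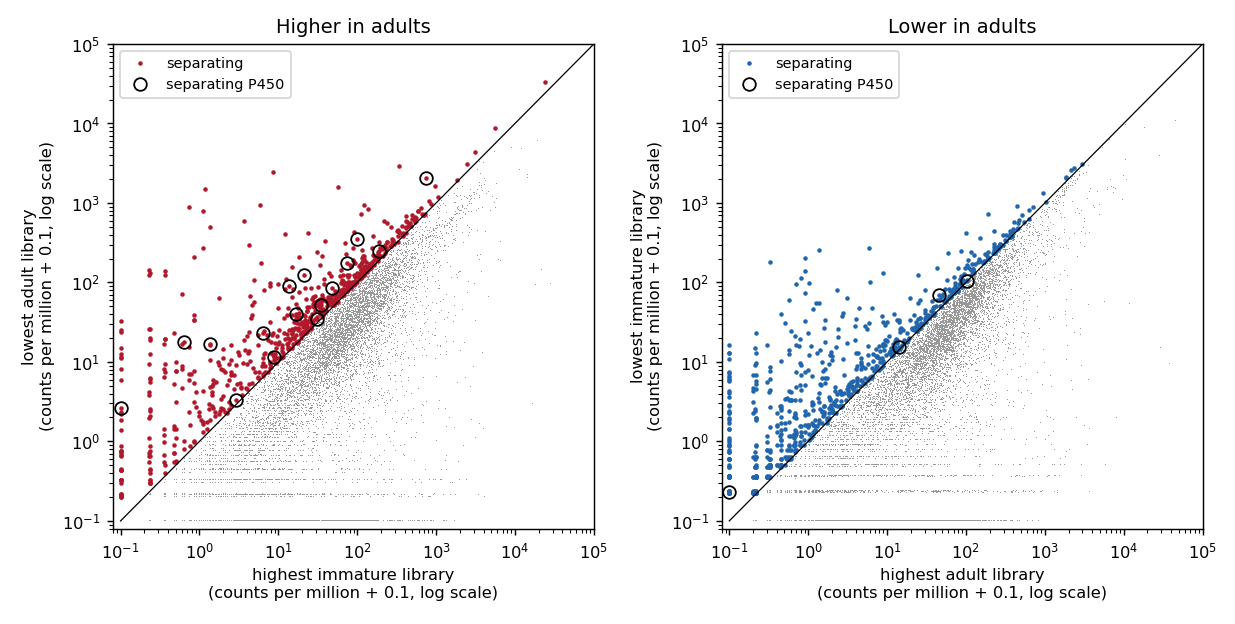
Each point is 1 of 10799 unigenes, in CPM plus 0.1 on log axes. On the left the lowest adult library is plotted against the highest immature library, on the right the lowest immature against the highest adult library. The 659 and 762 coloured points above the line separate, most of them close to it, and open circles mark the 16 P450 unigenes on the left and 4 on the right.

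The separating unigenes took unequal shares of the libraries, as the rule itself makes them. Those higher in adults held 21.4%, 21.5% and 18.4% of the counts of the male, female and mated libraries, against 4.07%, 6.32% and 7.44% of the egg, larval and pupal libraries. Those lower in adults held 3.26%, 3.12% and 3.36% of the adult counts in that order, against 7.10%, 9.93% and 10.4% of the immature counts. The mean level over the 6 libraries had a median of 33.9 CPM among those higher in adults and 12.1 among those lower, beside 22.1 over all unigenes. The number of assembled isoforms barely set them apart, with a mean of 1.97 in those higher, 1.83 in those lower and 1.91 over all unigenes.

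Of the libraries left out in turn, the mated library raised both counts most. Without it 2233 unigenes were higher and 2259 lower in adults, which are 3.39 and 2.96 times the counts over all 6 libraries. Without pupae the counts were 1282 higher and 1547 lower, without eggs 1350 and 1195, and without larvae 1008 and 1251. Leaving out the library labelled female gave 706 and 938, and leaving out males gave 697 and 893, so either of these near-identical libraries added little to what the other required. Fewer libraries make the rule easier to meet by construction, and each of these counts leaves out 1 library. Counts of gene lists with a library left out, given below, compare with these counts and not with the shares over all 6 libraries. Without mated females, the adult class held only males and the near-identical female library. With a gap of at least 2-fold, the counts were 963 higher and 295 lower without mated females, 505 and 393 without pupae, and 286 and 354 without eggs, so for those lower the count without pupae was the largest of the 6. Among the 659 unigenes higher in adults, mated females were the lowest adult library in 423, the female library in 129 and males in 107, while pupae were the highest immature library in 322, eggs in 179 and larvae in 158. Among the 762 lower in adults, males were the highest adult library in 309, the female library in 274 and mated females in 179, while the lowest immature library was pupae in 290, eggs in 271 and larvae in 201. Across all unigenes the mated library had a Spearman coefficient of 0.859 with eggs, 0.770 with males and 0.769 with the female library. The eggshell marker Cp19 was high in mated females, as given above, and the part of eggs carried in the body in these counts was not tested.

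**Figure D2:**
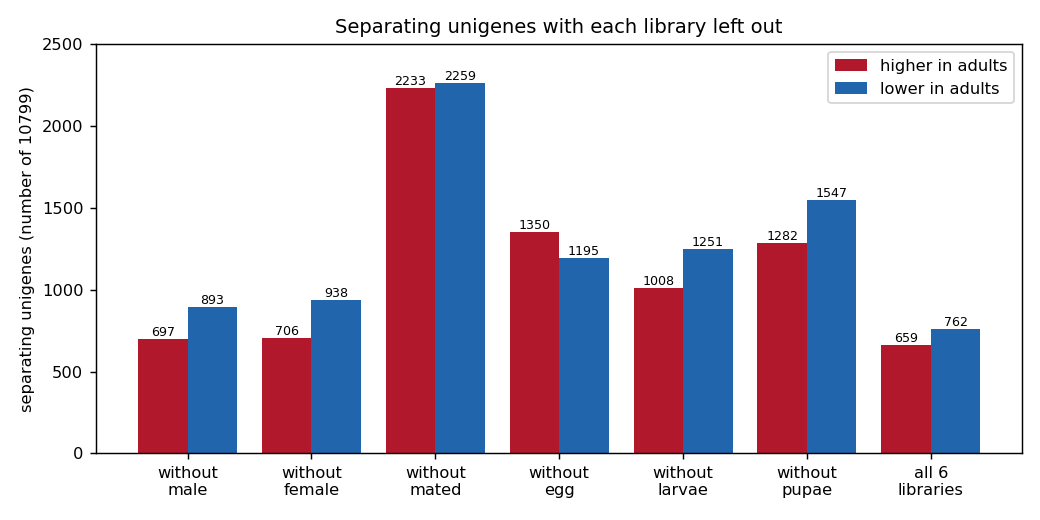
Bars give the number of unigenes, of 10799, that separate when the library named under them is left out, with all 6 libraries at the right. Red bars are higher and blue bars lower in adults. The bars without mated females, 2233 and 2259, stand above all others.

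The unigenes with the widest gaps in favour of adults were nearly silent before adulthood. The widest of all, comp27777_c2, had 1572, 1498 and 1537 CPM in the male, female and mated libraries, against 0.677, 1.07 and 0.509 in the egg, larval and pupal libraries. Its lowest adult value was 1399-fold (95% counting interval 710.0 to 3242) above its highest immature value. It has no gene name in the shortened copy of the annotation used here, and its 3 adult libraries were almost level. Next came comp21582_c0, paired with the D. melanogaster gene FBgn0034871, with 1142, 1334 and 877 CPM in the male, female and mated libraries, against 0.271, 0.402 and 0.636 in the egg, larval and pupal libraries. Unnamed comp24834_c0 had 798, 814 and 1312 CPM in the male, female and mated libraries, against 0.677, 0.937 and 1.02 in the egg, larval and pupal libraries. In both, the lowest adult library stood 1379-fold and 783-fold above the highest immature one.

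In the next 3, larvae or pupae showed a trace. Unigene comp30055_c0 had 2965, 2479.8 and 3409 CPM in the male, female and mated libraries, against 0.812, 8.43 and 1.91 in the egg, larval and pupal libraries, with a gap of 294-fold (95% counting interval 229.8 to 383). Unigene comp22171_c0 had 521, 501 and 1529.8 CPM in the male, female and mated libraries, against 0.406, 0.268 and 1.27 in the egg, larval and pupal libraries, and comp26091_c0 had 935, 978 and 1190.4 CPM in the male, female and mated libraries, against 0.812, 5.75 and 1.15 in the egg, larval and pupal libraries. Mated females were the highest library in all 3, and larvae were the highest immature library in comp30055_c0 and comp26091_c0. The last of these 8, comp21158_c0 and comp25964_c0, were matched to the same group of D. melanogaster genes, among them FBgn0002570, FBgn0002571 and FBgn0032381. The 2 differed among adults. In comp21158_c0 mated females led, with 287, 272 and 1106 CPM in the male, female and mated libraries, against 0.271, 0.535 and 1.02 in the egg, larval and pupal libraries. In comp25964_c0 males led, with 1238, 1026 and 586 CPM in the male, female and mated libraries, against 1.35, 0.402 and 3.56 in the egg, larval and pupal libraries.

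The widest gaps in the other direction were unigenes almost without counts in adults. Unigene comp26798_c0 had 0, 0.232 and 0.223 CPM in the male, female and mated libraries, against 178, 404 and 709 in the egg, larval and pupal libraries, rising in order of stage among the immature libraries, with a gap of 769.5-fold (95% counting interval 213 to 6361). It has no gene name in the shortened copy of the annotation used here. Unigene comp26386_c0, matched to FBgn0004777 and FBgn0035513, had 0.808, 0.579 and 0.223 CPM in the male, female and mated libraries, against 243, 358 and 205 in the egg, larval and pupal libraries. Here the immature libraries lay within a narrow range of each other. Larvae led in comp28581_c0, paired with FBgn0027527, with 0.404, 1.27 and 0.223 CPM in the male, female and mated libraries, against 258, 2388 and 265 in the egg, larval and pupal libraries.

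Pupae led in most of the rest. Unigene comp20954_c0, paired with FBgn0037430, had 0.808, 0.695 and 0 CPM in the male, female and mated libraries, against 141, 403 and 840.3 in the egg, larval and pupal libraries. CG2150 (comp27113_c0), listed by the study among orthologs of genes that respond to the CncC/Keap1 stress pathway, had 0.707, 0.579 and 0.111 CPM in the male, female and mated libraries, against 114, 179 and 3384 in the egg, larval and pupal libraries, the widest gap of any named unigene lower in adults at 161-fold (95% counting interval 77.8 to 402). Eggs led only in comp26346_c0, matched to FBgn0035511 and FBgn0053302, which had 0.606, 0 and 0.111 CPM in the male, female and mated libraries, against 139, 106 and 95.8 in the egg, larval and pupal libraries. Unigene comp27993_c1, paired with FBgn0037414, had 0.404, 0.927 and 0.223 CPM in the male, female and mated libraries, against 98.3, 1034 and 1979 in the egg, larval and pupal libraries. Unnamed comp29320_c1 had 0, 0.463 and 0 CPM in the male, female and mated libraries, against 60.5, 133 and 277 in the egg, larval and pupal libraries. All 16 of these unigenes were picked from those that separate on FPKM as well, so their separation on FPKM is no check. Unigenes listed at FPKM 0 could not be among them.

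**Figure D3:**
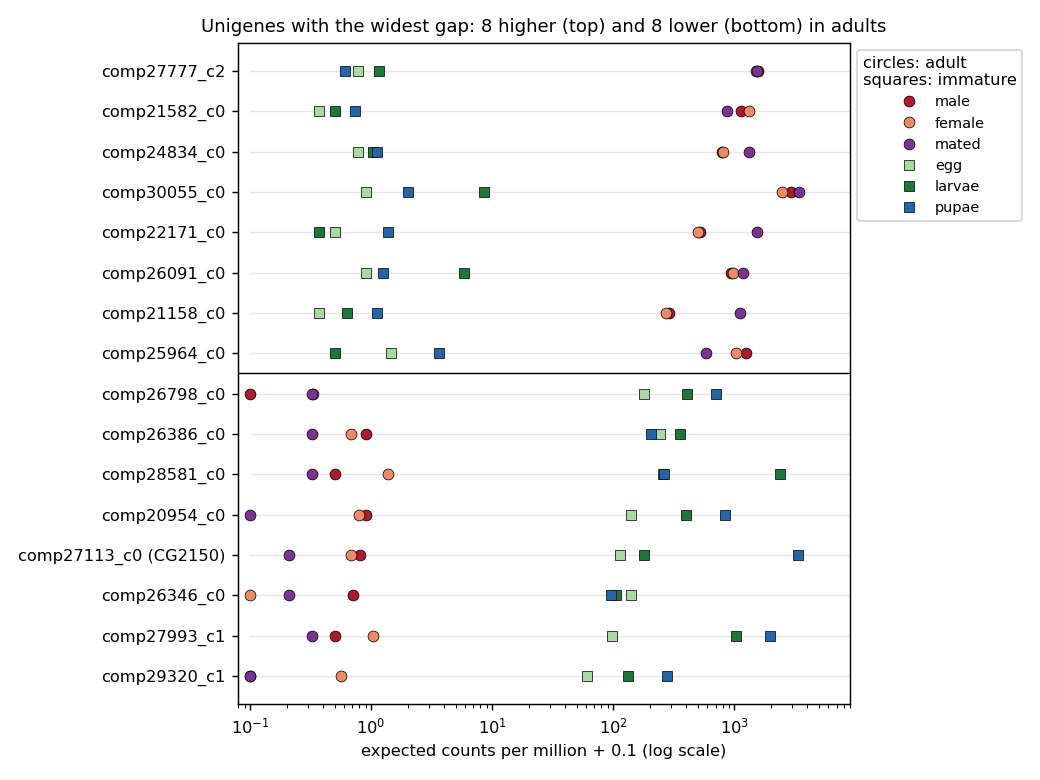
Values in CPM plus 0.1, on a log axis, with 1 point per library (circles adult, squares immature). Shown are the 8 unigenes with the widest gap in each direction among those that separate on both counts and FPKM. In the upper 8 all adult points lie to the right of all immature points, and in the lower 8 all lie to the left. Some points of males and of the female library overlap.

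Unigenes with the most counts separated by smaller margins than those with the widest gaps, though the margin of comp28593_c1 was still wide. The 4 given here were picked after their values were seen, from the 5 most abundant in each direction. Unigene comp28816_c2, paired with FBgn0001233, had 38191, 44728 and 33188 CPM in the male, female and mated libraries, against 10650.5, 21027 and 23985 in the egg, larval and pupal libraries. It ranked first among those higher in adults, with the classes less than 2-fold apart. Unigene comp28593_c1, paired with FBgn0004045, was a mated female transcript above all, with 474, 416 and 37361 CPM in the male, female and mated libraries, against 19.5, 9.23 and 23.4 in the egg, larval and pupal libraries. It separated only because males and the female library also exceeded every immature library. Unigene comp22977_c0, matched to FBgn0003884 and FBgn0003885, led those lower in adults with 2317, 2164 and 1707 CPM in the male, female and mated libraries, against 3237, 2779.5 and 5687 in the egg, larval and pupal libraries. Unigene comp20000_c0, paired with FBgn0002607, followed with 2145, 1706 and 2934 CPM in the male, female and mated libraries, against 3996, 4024 and 3085 in the egg, larval and pupal libraries.

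Among the families listed by name, cytochrome P450 had the most unigenes higher in adults. Of the 659 unigenes higher in adults, 411 had neither a name nor a matched D. melanogaster gene in the annotation used here. The same held for 441 of the 762 lower. Over all 10799 unigenes, 611 had a name and 3700 a matched gene, so most had neither. Of 92 P450 unigenes, 16 were higher and 4 lower in adults, or 17.4% and 4.35%, beside 6.10% and 7.06% of all unigenes. The other 72 overlapped. The median log2 difference of the 92 was 0.31, beside −0.13 over all unigenes. With a gap of at least 2-fold, 10 were higher and 0 lower, beside 1.94% and 1.90% of all unigenes. The counts by clan were 7 higher and 1 lower of 40 in the CYP3 clan, 6 and 1 of 30 in the CYP4 clan, 3 and 1 of 16 in the mitochondrial clan, and 0 and 1 of 6 in the CYP2 clan. On FPKM 12 were higher and 4 lower, beside 4.48% and 7.20% of all unigenes. CYP12A5 (comp26899_c0), CYP6A2 and CYP4D8 are listed at FPKM 0 and CYP6A13 overlapped. Without the library labelled female the counts stayed at 16 and 4. They were 31 and 9 without mated females, 32 and 9 without larvae, 22 and 7 without pupae, 16 and 7 without males and 19 and 14 without eggs. Over all 10799 unigenes the counts were 2233 and 2259 without mated females, 1008 and 1251 without larvae, and 1350 and 1195 without eggs.

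The most abundant was CYP4G1 (comp29180_c1), which in D. melanogaster carries out the last step in making cuticular hydrocarbons. It had 2815, 2635 and 2049 CPM in the male, female and mated libraries, against 26, 134 and 747 in the egg, larval and pupal libraries. The immature libraries increased in order of stage and the lowest adult library was 2.74-fold (95% counting interval 2.66 to 2.82) above pupae. The second CYP4G1 unigene, comp28492_c0, had 269, 221 and 175 CPM in the male, female and mated libraries, against 0.135, 0 and 73.4 in the egg, larval and pupal libraries and rested on 1 count in eggs and 0 in larvae. Both unigenes were matched to 1 gene, and reads could be split between them.

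The mitochondrial clan, whose members work in the mitochondrion rather than the endoplasmic reticulum, was led by CYP12A5 and CYP12E1. CYP12A5 (comp26899_c0) had 20.0, 17.6 and 21.4 CPM in the male, female and mated libraries, against 0, 0.535 and 0.127 in the egg, larval and pupal libraries, a gap of 32.9-fold (95% counting interval 12.6 to 122). Its adult libraries were nearly level. CYP12E1 had a unigene, comp28396_c0, with 112, 106 and 90.1 CPM in the male, female and mated libraries, against 0.271, 8.83 and 13.6 in the egg, larval and pupal libraries and another, comp30152_c0, with 172, 183 and 85.7 CPM in the male, female and mated libraries, against 5.01, 47.2 and 42.9 in the egg, larval and pupal libraries. Their gaps were 6.62-fold and 1.81-fold.

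The CYP4E2 unigenes of the CYP4 clan differed in level. Unigene comp26006_c0 had 38.6, 34.1 and 16.6 CPM in the male, female and mated libraries, against 0.135, 0 and 1.27 in the egg, larval and pupal libraries, while comp26879_c0 had 542, 616 and 355 CPM in the male, female and mated libraries, against 22.1, 100.1 and 28.4 in the egg, larval and pupal libraries. Mated females were the lowest adult library in both, and the gaps were 13-fold and 3.54-fold. Among CYP3 clan members, the clan that holds most insect P450s known to act on insecticides, CYP6A23 (comp26873_c0) had 205, 174 and 124 CPM in the male, female and mated libraries, against 2.03, 21.1 and 1.91 in the egg, larval and pupal libraries. CYP6A2 (comp22299_c0), whose D. melanogaster namesake is known from insecticide-resistant strains, had 27.2, 41.5 and 2.56 CPM in the male, female and mated libraries, against 0, 0 and 0 in the egg, larval and pupal libraries. It was at 0 in all immature libraries, and its lowest adult library was at least 6.30-fold above the limit of 3 counts.

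Of the other P450s higher in adults, CYP28D1 had 2 separating unigenes with gaps of 3.57-fold (comp29704_c0) and 2.43-fold (comp23018_c0), and CYP313A4 (comp27986_c0) and CYP9B2 (comp28135_c1) had gaps of 1.5-fold and 1.32-fold. The counting interval of the gap reached below 1 for CYP4D8, CYP6A13 and CYP6T1 (comp29136_c0), with gaps of 1.32-fold, 1.12-fold and 1.16-fold. Of the 4 lower in adults, 1 was clear of counting error. This was another CYP6A23 unigene, comp28515_c0, with 18.3, 18.2 and 46.1 CPM in the male, female and mated libraries, against 69.2, 79.6 and 188 in the egg, larval and pupal libraries. CYP303A1, CYP4C3 and CYP12A5 (comp25998_c0) were the others, and CYP12A5 had 2 counts in eggs and 1 in larvae. Unigenes of the same matched name thus fell on both sides, as CYP6A23 and CYP12A5 did.

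**Figure D4:**
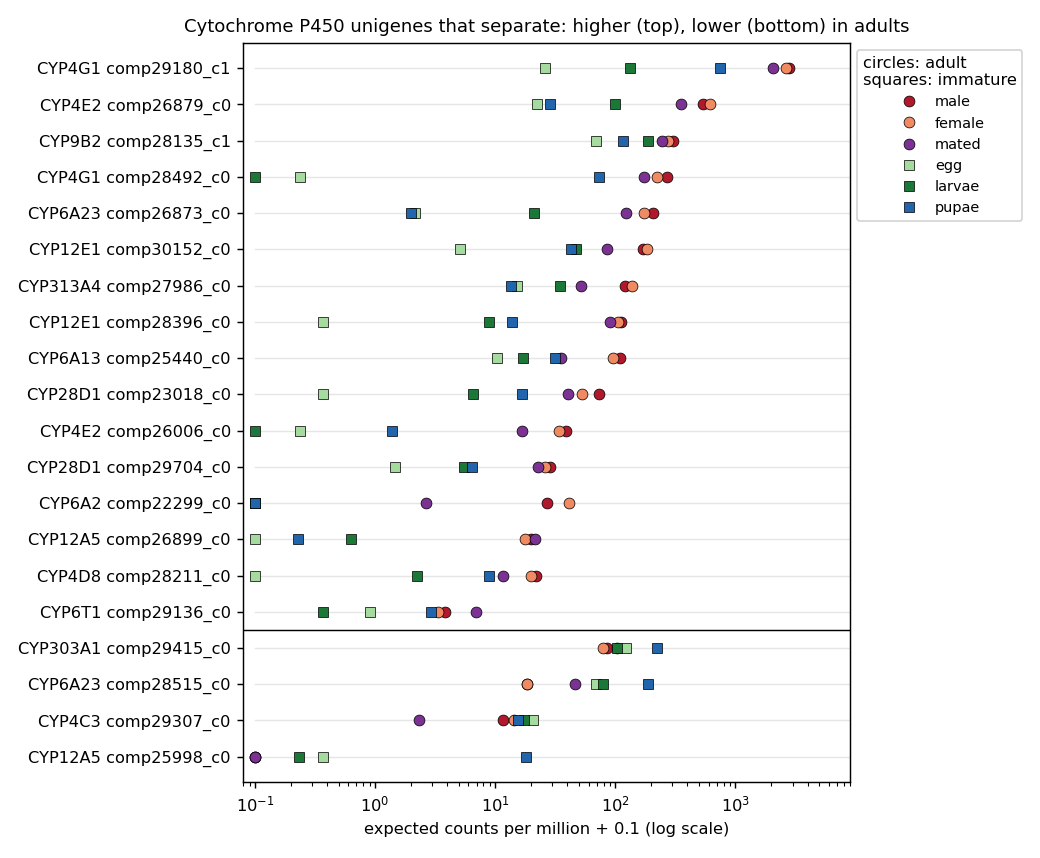
Values in CPM plus 0.1, on a log axis, of the 20 P450 unigenes that separate, with 1 point per library (circles adult, squares immature). The 16 above the line are higher in adults and the 4 below it lower. Points stacked at 0.1 are libraries without counts.

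The list of immune genes was small. Of its 7 unigenes, 3 were higher in adults and 0 lower, or 42.9% beside 6.10% of all unigenes. All 3 had a gap of at least 2-fold, beside 1.94% of all unigenes. The median log2 difference of the 7 was 2.40, beside −0.13 over all unigenes. Without pupae 5 of the 7 were higher, beside 1282 of all 10799 unigenes. Defensin-C (comp15765_c0), an antimicrobial peptide, had 209, 207 and 1554 CPM in the male, female and mated libraries, against 0.406, 0.402 and 0.764 in the egg, larval and pupal libraries. Its gap of 271-fold (95% counting interval 124 to 740.1) was the widest of any named unigene higher in adults, and its level in mated females was far above that in males. PGRP-SB1 (comp26036_c0), of the family that binds bacterial peptidoglycan, had 53.3, 48 and 38.7 CPM in the male, female and mated libraries, against 0.812, 2.81 and 4.58 in the egg, larval and pupal libraries. AttA (comp23040_c0), an attacin directed at bacteria, had 25.5, 22.1 and 4.56 CPM in the male, female and mated libraries, against 0, 0.134 and 0.509 in the egg, larval and pupal libraries, and is listed at FPKM 0.

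The other 4 immune unigenes overlapped. GNBP3 (comp27748_c0), which recognises fungal glucans in D. melanogaster, had 76.1, 65.1 and 35.5 CPM in the male, female and mated libraries, against 8.66, 24.1 and 211 in the egg, larval and pupal libraries, so pupae exceeded every adult library. Peptidoglycan-recognition protein SC2 (comp14807_c0) had 8.08, 6.72 and 119 CPM in the male, female and mated libraries, against 0, 56.1 and 0 in the egg, larval and pupal libraries, where larvae stood above 2 adult libraries. Attacin-B (comp15175_c0) had 5.86, 7.18 and 1.56 CPM in the male, female and mated libraries, against 0, 0 and 2.16 in the egg, larval and pupal libraries. Hml (comp28433_c0), a hemocyte protein involved in clotting, had 41.4, 43.3 and 90.6 CPM in the male, female and mated libraries, against 18.7, 102 and 86.8 in the egg, larval and pupal libraries. Its ranges in both classes overlapped widely.

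Among transport and sensory genes, Apolipoprotein D (comp16351_c0), a lipid carrier of the lipocalin family, had 108, 112 and 445 CPM in the male, female and mated libraries, against 0.271, 1.47 and 4.84 in the egg, larval and pupal libraries, a gap of 22.3-fold (95% counting interval 16.1 to 31.6). Of 28 neural and sensory unigenes 3 were higher and 1 lower, or 10.7% and 3.57%, beside 6.10% and 7.06% of all unigenes. Without mated females 10 were higher and 1 lower, beside 2233 and 2259 of all 10799 unigenes. All 3 that were higher over the 6 libraries belong to families that take part in detecting odours or pheromones in other insects. General odorant-binding protein 99a (comp14871_c0) had 6.56, 8.8 and 4.23 CPM in the male, female and mated libraries, against 0, 0.134 and 1.02 in the egg, larval and pupal libraries. Snmp (comp27744_c0), a membrane protein of sensory neurons, had 14.1, 12.5 and 5.79 CPM in the male, female and mated libraries, against 0.135, 0 and 2.29 in the egg, larval and pupal libraries. Pheromone-binding protein-related protein 5 (comp14572_c0) had 62.8, 49.6 and 71 CPM in the male, female and mated libraries, against 23.3, 12.6 and 11.1 in the egg, larval and pupal libraries. The first of these is listed at FPKM 0, and the other 2 also separated on FPKM. The unigene lower in adults, matched to a voltage-dependent calcium channel (comp14371_c0), had at most 1.07 CPM in any library.

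The mitochondrial list came from a shortened copy of the annotation and holds only some of these enzymes. Of its 6 unigenes for energy metabolism 3 were higher in adults and 0 lower, or 50.0% beside 6.10% of all unigenes, with gaps under 2-fold and a median log2 difference of the 6 of 1.15. Without mated females 5 were higher, beside 2233 of all 10799 unigenes. Cytochrome c oxidase subunit 5B (comp14319_c0), of the last complex of the respiratory chain, had 1309.9, 1310.4 and 783 CPM in the male, female and mated libraries, against 301, 529 and 582 in the egg, larval and pupal libraries, a gap of 1.34-fold (95% counting interval 1.29 to 1.4). A subunit of NADH dehydrogenase (comp15131_c0), of the first complex, had 319, 329 and 263 CPM in the male, female and mated libraries, against 184, 151 and 207 in the egg, larval and pupal libraries. The other NADH dehydrogenase subunit, comp14799_c0, had a gap of 1.17-fold and overlapped on FPKM.

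Orthologs of genes that respond to CncC and Keap1, the regulator and its inhibitor that govern oxidative and xenobiotic stress responses, separated in both directions. Of 141, 25 were higher in adults and 12 lower, or 17.7% and 8.51%, beside 6.10% and 7.06% of all unigenes. On both counts and FPKM, 20 were higher and 9 lower, beside 3.70% and 5.88% of all unigenes. CG1139 (comp26840_c0) led with 27.4, 27.6 and 15.2 CPM in the male, female and mated libraries, against 0, 0 and 0.636 in the egg, larval and pupal libraries, and is listed at FPKM 0. Gclc (comp28755_c0), the catalytic subunit of the enzyme that starts glutathione synthesis, had 159, 164 and 158 CPM in the male, female and mated libraries, against 138, 122 and 35 in the egg, larval and pupal libraries, a gap of 1.14-fold (95% counting interval 1.05 to 1.23). Without mated females the counts were 42 and 19, without larvae 43 and 16, without pupae 39 and 21, and without eggs 25 and 23. Without the library labelled female they were 26 and 12. Over all 10799 unigenes the counts were 2233 and 2259 without mated females, and 1008 and 1251 without larvae.

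The conjugating enzymes that act after P450s separated in both directions. Of 34 glutathione S-transferase (GST) unigenes, 3 were higher and 3 lower in adults, or 8.82% each, beside 6.10% and 7.06% of all unigenes. A gap of at least 2-fold was met by 0, beside 1.94% and 1.90% of all unigenes. On both counts and FPKM, 2 were higher and 1 lower, as comp23710_c0, comp27377_c0 and comp23617_c0 overlapped on FPKM. Over all unigenes, 3.70% were higher and 5.88% lower on both scales. Without mated females 10 were higher and 7 lower, and without pupae 7 and 8. Over all 10799 unigenes these counts were 2233 and 2259 without mated females, and 1282 and 1547 without pupae. GST comp26807_c0 had 90.6, 63.8 and 60.2 CPM in the male, female and mated libraries, against 32.4, 24.1 and 23.3 in the egg, larval and pupal libraries, the widest gap of the family at 1.86-fold. The other gaps were 1.06-fold and 1.25-fold for those higher (comp23710_c0, comp24099_c0) and 1.11-fold, 1.08-fold and 1.01-fold for those lower (comp27377_c0, comp29159_c1, comp23617_c0). Of 23 UDP-glycosyltransferase (UGT) unigenes, 3 were higher and 4 lower, or 13% and 17.4%, beside the same 6.10% and 7.06%. On both counts and FPKM, 1 was higher and 3 lower, the one higher being comp19544_c0. Without larvae 7 were higher and 4 lower, beside 1008 and 1251 of all unigenes. Without pupae 4 were higher and 7 lower, beside 1282 and 1547 of all unigenes. UGT comp25250_c0 had 18.4, 18.6 and 1.45 CPM in the male, female and mated libraries, against 0, 0 and 0.382 in the egg, larval and pupal libraries, whereas UGT comp29275_c0 had 79, 77.8 and 79.5 CPM in the male, female and mated libraries, against 224, 189 and 152 in the egg, larval and pupal libraries. The first had 13 counts in mated females and 3 in pupae, its counting intervals were not apart, and it is listed at FPKM 0. In the second the adult libraries were level and the gap was 1.92-fold (95% counting interval 1.75 to 2.11). The others higher were comp27362_c0, with a gap of 1.13-fold, and comp19544_c0, with 2.47-fold at few counts, and the others lower were comp23842_c0, comp27327_c0 and comp18382_c0, with intervals that were not apart.

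After CG2150, the named unigenes lower in adults with the widest gaps included 4 others known by CG numbers, along with genes of the cuticle, the extracellular matrix and Notch signalling. CG18031 (comp25648_c0) had 0.707, 0.116 and 0 CPM in the male, female and mated libraries, against 8.93, 15.9 and 6.74 in the egg, larval and pupal libraries, and CG14572 (comp27762_c0) had 1.92, 1.85 and 1.0 CPM in the male, female and mated libraries, against 22.9, 10.4 and 22.1 in the egg, larval and pupal libraries. The gaps were 9.54-fold and 5.44-fold. The miniature gene m (comp29850_c0), whose product shapes the cuticle of wing cells in D. melanogaster, had 0.101, 0.463 and 0.111 CPM in the male, female and mated libraries, against 3.25, 23 and 82.1 in the egg, larval and pupal libraries. Its counts increased in order of stage to pupae and were near 0 in all adults.

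Of 11 cuticle and chitin unigenes 2 were lower in adults, or 18.2% beside 7.06% of all unigenes, and 0 higher, and m was one. The other was Flexible cuticle protein 12 (comp14641_c0), with 0.202, 0.232 and 0.111 CPM in the male, female and mated libraries, against 4.06, 28.6 and 0.382 in the egg, larval and pupal libraries. Its gap rested on 3 counts in pupae and had an interval of 0.189 to 19.7. Ppn (comp30543_c0), papilin of the extracellular matrix, had 45.2, 57.3 and 46.8 CPM in the male, female and mated libraries, against 108, 308 and 140.5 in the egg, larval and pupal libraries. Collagen IV Cg25C (comp29156_c0) had 665, 714 and 192 CPM in the male, female and mated libraries, against 902, 3506 and 997 in the egg, larval and pupal libraries and overlapped on FPKM. Delta-like protein C (comp15657_c0), a match to a Notch ligand, had 0.101, 0.116 and 0 CPM in the male, female and mated libraries, against 1.9, 5.75 and 18.3 in the egg, larval and pupal libraries, with 1 count each in males and the female library and an interval of the gap of 2.49 to 692.

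CG30427 (comp26674_c0) and CG32037 (comp27087_c0), both CncC/Keap1 orthologs, had gaps of 2.0-fold and 2.27-fold in favour of the immature stages. The last of the 10 named unigenes with the widest gaps, matched to Tyrosine-protein kinase-like otk (comp15464_c0), had 0.909, 0.811 and 0.111 CPM in the male, female and mated libraries, against 4.2, 2.14 and 2.93 in the egg, larval and pupal libraries, and its intervals were not apart. Of 18 transposon matches 3 were lower in adults, or 16.7% beside 7.06% of all unigenes, and 0 higher, namely comp15080_c0, comp105519_c0 and comp13080_c0, each with at most 2.81 CPM in any library. The transposon match with the widest gap, comp15080_c0, had 0.303, 0.232 and 0.334 CPM in the male, female and mated libraries, against 0.948, 0.402 and 0.509 in the egg, larval and pupal libraries.

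The other 9 cuticle and chitin unigenes overlapped, several with a single stage or library far from the rest. Larval cuticle protein 8 (comp14767_c0) had 74.4, 51.8 and 2.45 CPM in the male, female and mated libraries, against 28.4, 27.7 and 1289.6 in the egg, larval and pupal libraries. Cpr100A (comp28916_c2) had 1114, 996 and 12.4 CPM in the male, female and mated libraries, against 98, 37.1 and 309 in the egg, larval and pupal libraries, and would be higher in adults without mated females. The chitin-binding obst-A (comp20829_c0) had 254, 274 and 33.9 CPM in the male, female and mated libraries, against 118, 337 and 769 in the egg, larval and pupal libraries, and would be lower in adults without eggs. Cpr49Ab, Cpr49Ad and obst-B had levels in mated females of 0, 0 and 10.6 CPM, below those in males and the female library. Probable chitinase 3 (comp14318_c0) had 0.202, 0.232 and 0 CPM in the male, female and mated libraries, against 9.61, 45.9 and 0.127 in the egg, larval and pupal libraries, a transcript of eggs and larvae. The tanning gene e (comp28943_c0), named ebony, had 78.5, 84 and 7.79 CPM in the male, female and mated libraries, against 11.5, 4.55 and 90.6 in the egg, larval and pupal libraries, so pupae exceeded all adults. Larval/pupal cuticle protein H1C (comp15553_c0) had 6.56 CPM in larvae and 0 in the other 5 libraries.

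Of 5 ecdysteroid P450 unigenes 0 were higher and 0 lower, beside 13.2% of all unigenes that separated in either direction. Without mated females, CYP18A1, CYP306A1 and CYP315A1 would be lower in adults, and without eggs CYP302A1 would be higher. CYP314A1 (comp26792_c0), which makes the active hormone 20-hydroxyecdysone, had 20.4, 22.2 and 68.1 CPM in the male, female and mated libraries, against 104, 40.3 and 12.2 in the egg, larval and pupal libraries. CYP315A1 (comp28589_c0), which acts a step earlier, had 14.5, 16.2 and 88.9 CPM in the male, female and mated libraries, against 162, 19.3 and 18.7 in the egg, larval and pupal libraries. In both, eggs were highest and mated females came next. CYP302A1 (comp27663_c0) had 18.5, 13 and 36.4 CPM in the male, female and mated libraries, against 26.3, 6.69 and 9.42 in the egg, larval and pupal libraries, with mated females highest.

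The other pair of ecdysteroid P450s shared 1 component number in the assembly. CYP18A1 (comp26490_c1), which inactivates the hormone, had 44.7, 44.8 and 92.5 CPM in the male, female and mated libraries, against 133, 82.3 and 77 in the egg, larval and pupal libraries. CYP306A1 (comp26490_c0) had 0, 0.232 and 13.7 CPM in the male, female and mated libraries, against 2.44, 4.15 and 4.71 in the egg, larval and pupal libraries, at or near 0 in males and the female library. None of the 3 juvenile hormone unigenes separated either. Jhe (comp28974_c0), the esterase that degrades the hormone, had 2.42, 1.04 and 1.67 CPM in the male, female and mated libraries, against 3.66, 1.07 and 14.4 in the egg, larval and pupal libraries. Jheh1 (comp25416_c0), its epoxide hydrolase, had 11.2, 11.1 and 8.79 CPM in the male, female and mated libraries, against 31, 109 and 1.27 in the egg, larval and pupal libraries. JhI-26 (comp26947_c0), named as inducible by the hormone, had 95.1, 86.2 and 71.4 CPM in the male, female and mated libraries, against 17.2, 74.1 and 19.2 in the egg, larval and pupal libraries, where larvae lay just above mated females. Jhe would be lower in adults without larvae, Jheh1 lower without pupae, and JhI-26 higher without either larvae or mated females.

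Of 47 sex determination matches, 1 was higher and 3 lower in adults, or 2.13% and 6.38%, beside 6.10% and 7.06% of all unigenes. Without mated females the counts were 4 and 14, without larvae 1 and 9, without pupae 2 and 6, and without eggs 7 and 4. Over all 10799 unigenes the counts were 2233 and 2259 without mated females, and 1350 and 1195 without eggs. The one higher was dsx (comp25690_c0), the switch at the end of the pathway, with 39.3, 42.5 and 52.9 CPM in the male, female and mated libraries, against 1.08, 2.14 and 15 in the egg, larval and pupal libraries. Pupae were the highest immature library, and the gap was 2.62-fold (95% counting interval 2.12 to 3.24). Among those lower was 1 of the Sxl matches, comp29931_c1, with 22.7, 24.7 and 21.3 CPM in the male, female and mated libraries, against 48.5, 47.4 and 34.7 in the egg, larval and pupal libraries. The others were 2 dpn matches, comp20281_c0 and comp20421_c0, with few counts.

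Upstream and dosage compensation genes overlapped. The gene sisA (comp27850_c0), an early counter of X chromosomes in D. melanogaster, had 0, 0 and 31.9 CPM in the male, female and mated libraries, against 70.4, 0.402 and 0.255 in the egg, larval and pupal libraries. The splicing partner tra-2 (comp23083_c0) had 23.6, 17.3 and 70.1 CPM in the male, female and mated libraries, against 125, 23.8 and 26.6 in the egg, larval and pupal libraries. Of the dosage compensation genes, msl-1 (comp27436_c0) had 20.0, 21.3 and 71.6 CPM in the male, female and mated libraries, against 82.2, 15.8 and 10.9 in the egg, larval and pupal libraries, and msl-2 (comp27138_c0) had 6.26, 8.11 and 10.9 CPM in the male, female and mated libraries, against 26.3, 14.5 and 6.11 in the egg, larval and pupal libraries. For msl-3 (comp29813_c1) the values were 75.4, 82.5 and 71.8 CPM in the male, female and mated libraries, against 121, 52.3 and 42.6 in the egg, larval and pupal libraries. Eggs were the highest library in all 5, and without eggs msl-1 and msl-3 would be higher in adults.

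The lists differed in the share of members that separated, as the bars by list show. None of 13 axoneme, 13 digestion, 7 chromatin and 6 lipid unigenes separated, beside 13.2% of all unigenes in either direction. Without mated females 8 of the 13 axoneme unigenes were higher in adults, 5 of them matched to axonemal dynein heavy chains. Over all 10799 unigenes, 2233 were higher without that library, where the adult class is males and the near-identical female library. Among digestive enzymes and gut lining proteins, 6 of 13 would be lower in adults without pupae, namely CG8563, Peritrophin-1, Serine proteases 1/2, Zinc carboxypeptidase A 1 and a pair of Peritrophin-48 unigenes, and Trypsin-4 and CG11529 would be lower without mated females. Over all unigenes, 1547 were lower without pupae and 2259 without mated females. Of 11 ribosome unigenes 1 was higher and 1 lower, Ribosomal RNA-processing protein 8 (comp14439_c0) with a gap of 1.03-fold and nucleolar GTP-binding protein 1 (comp14708_c0) with a gap of 1.04-fold. Over the 287 unigenes with a Swiss-Prot match, 15 were higher and 15 lower, or 5.23% each. These matches come from a shortened copy of the annotation, so the lists drawn from it hold only part of each class. Only 62 of the 659 unigenes higher in adults and 41 of the 762 lower carried a name from these lists, out of 611 named unigenes, so the lists describe a small part of what separated.

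**Figure D5:**
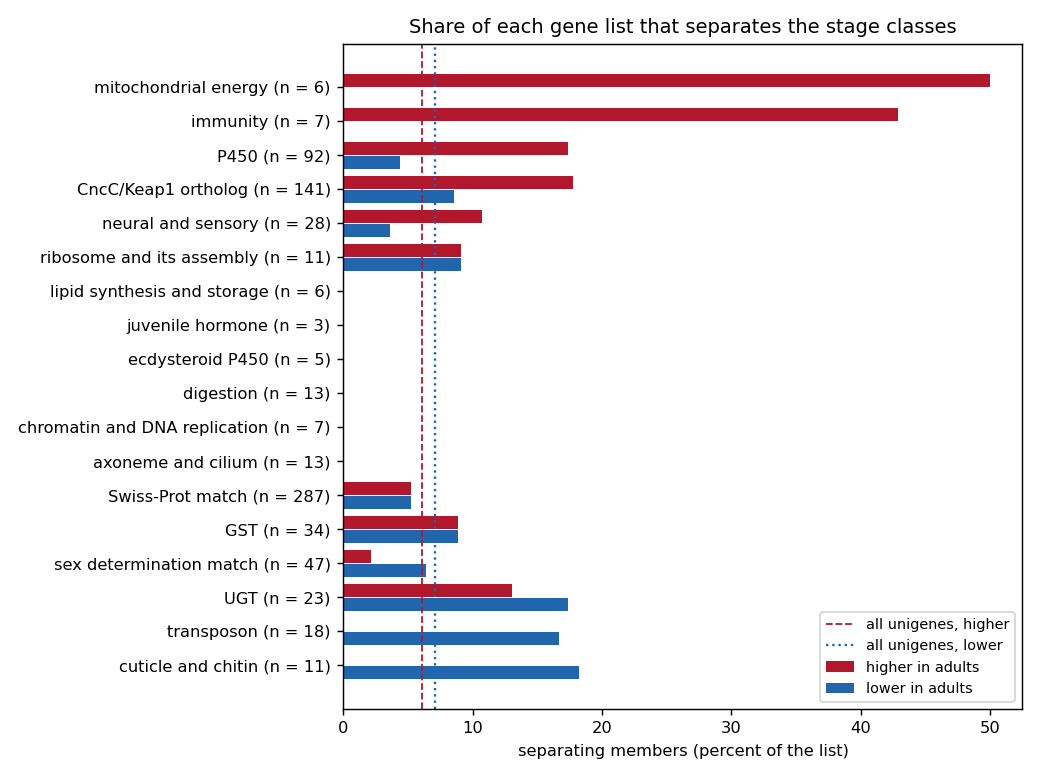
Bars give the percentage of each list whose members separate, higher (red) or lower (blue) in adults, with the list size beside its name. The dashed line marks 6.10% and the dotted line 7.06% of all unigenes. The red P450 bar (17.4%) runs past the dashed line and the blue one (4.35%) stops short of the dotted line, and lists without bars have no separating member. Lists of 3 to 13 members move by large steps.

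At the level of isoforms, 1219 of 20666 were higher in adults, or 5.90%, and 1255 were lower, or 6.07%. In 55 of the 4361 unigenes with 2 or more isoforms, 1 or more isoforms were higher and others lower. Each of these isoforms had at least 10 expected counts in every library of its higher class. As a whole, 15 of the 55 separated, beside 1421 of all 10799 unigenes, or 13.2%. Without mated females there were 321 such unigenes, and 236 without pupae, 187 without eggs, 155 without larvae, 111 without males and 91 without the library labelled female. RSEM divides reads among isoforms that share most of their sequence, and assembled isoforms can be near-identical copies of a gene, so these splits are less certain than unigene totals. The examples that follow were picked after their values were seen.

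A CYP6T1 unigene, comp29479_c0, had the most isoforms of opposite direction among named unigenes, 5 higher and 1 lower in adults. Isoform 11 had 163, 199 and 21.5 CPM in the male, female and mated libraries, against 1.94, 0.412 and 0.636 in the egg, larval and pupal libraries. Isoform 12 had 147, 142 and 25.1 CPM in the male, female and mated libraries, against 0, 0 and 1.33 in the egg, larval and pupal libraries. Isoform 6 ran the other way with 1.21, 1.74 and 0.223 CPM in the male, female and mated libraries, against 9.07, 221 and 4.84 in the egg, larval and pupal libraries. Of the counts of the unigene, that isoform made up 0.276, 0.357 and 0.249 percent in the male, female and mated libraries, against 48.9, 76.5 and 55.9 in the egg, larval and pupal libraries. Whether larvae and adults use different forms was not tested.

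A UGT unigene, comp30185_c0, showed the same kind of split. Its isoform 2 had 51.2, 42.6 and 26.3 CPM in the male, female and mated libraries, against 5.87, 0.646 and 5.53 in the egg, larval and pupal libraries, and isoform 3 had 8.07, 8.35 and 9.56 CPM in the male, female and mated libraries, against 119, 108 and 12.4 in the egg, larval and pupal libraries. Isoform 2 took 72.6, 72.5 and 68.2 percent in the male, female and mated libraries, against 4.51, 0.593 and 30.2 in the egg, larval and pupal libraries. Mf (comp29730_c1), a protein of the muscle myofibril, was the most abundant of the 55. Its isoform 5 had 178, 237 and 883 CPM in the male, female and mated libraries, against 0, 0 and 67.2 in the egg, larval and pupal libraries, and isoform 19 had 209.5, 197 and 79.8 CPM in the male, female and mated libraries, against 371, 1091 and 211 in the egg, larval and pupal libraries. Larvae dominated isoform 19 and mated females isoform 5.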

How the data were processed

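RNA of whole insects was sequenced on an Illumina GAIIx as 1 library per stage. The authors filtered reads on quality, assembled them with Trinity, aligned each library with Bowtie 0.12.7 and estimated abundance with RSEM, given as 1.2.0 in the submitters' processing notes. They deposited raw expected counts and also FPKM, to which their TMM scaling was applied, for unigenes and isoforms. No genome was used. Every column belongs to a stage, and 0 were left without a sample.

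Expected counts were divided by the column total and multiplied by 1000000 (CPM). Some expected counts are not whole and were rounded for Poisson intervals and scaling factors only. A unigene separated if the lowest value of a class exceeded the highest of the other. The interval of a gap is the exact conditional interval of a ratio of 2 counts, at 95%. Intervals cover counting error only, and PCR copies are not independent molecules. Size factors came from DESeq2 1.42.0 and TMM factors from edgeR 4.0.16 in R 4.3.3, and the rest was computed in Python 3.11.15 with scipy 1.17.1. The separation rule was tested on simulated data.

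Of the 17486 reference genes, 0 carried a unigene identifier, so names are those of the study's annotation, which matches unigenes to D. melanogaster or Swiss-Prot. Part of that annotation was shortened in the copy used here, so an unnamed unigene may have a match. The unigenes named were, in each direction, the 8 with the widest gap on both scales, the 10 with the widest gap among named unigenes, the widest of each list, and all members of the ecdysteroid, juvenile hormone, immunity and cuticle lists with a few stage and sex genes, with gaps ranked after adding 1 CPM. The classes, lists and rules were chosen with earlier results of these data known. Alternatives were FPKM, other scaling factors, a minimum of 10 counts over the libraries, thinning to the smallest library in 1 seeded draw, counting intervals, and each library left out. Leaving out libraries and changing scaling factors for the list counts were added after the data were seen.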

Additional observations from a re-analysis of the deposited data

How the results depend on the processing

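Separating unigenes numbered 659 higher and 762 lower in adults. Over the 6 counts with a library left out, those higher ranged between 697 and 2233 and those lower between 893 and 2259. For a gap of at least 2-fold, the ranges were 213 to 963 higher, beside 209 with all libraries, and 225 to 393 lower, beside 205. For isoforms they were 1421 to 4100 higher, beside 1219, and 1624 to 3252 lower, beside 1255, and for unigenes with isoforms in both directions 91 to 321, beside 55. Requiring counting intervals apart gave 385 higher and 285 lower, and requiring both scales gave 400 higher. On FPKM, those at least 2-fold higher numbered 129, where the 1203 unigenes listed at 0 cannot count. Counts under the size factors of DESeq2 (636 higher, 728 lower), TMM factors of edgeR (625 and 779), the minimum of 10 counts (649 and 750) and thinning (689 and 699) stayed within 1.5 times. Of those higher with column totals, 524 were higher with the factors of DESeq2 and 540 with those of edgeR. Of the 118 separating unigenes picked singly or as list members, 90 also separated on FPKM, 14 overlapped and 14 are listed at 0. The 8 with the widest gap in each direction were picked as separating on FPKM, so they could not count otherwise. None reversed, which the scaling did not allow. No paired analysis was possible because each stage has 1 library. Depth limits the low unigenes, since 10 of those higher and 12 of those lower have fewer than 10 counts in all.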
